A study of Danio rerio with 6 samples.

Results

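The solute carriers (SLC) are the largest group of membrane transport proteins in vertebrates. They were taken here as every probe set with 1 platform gene symbol that begins with slc and a family number, chosen by symbol alone, without the red cell anion exchanger slc4a1a and without the nucleoside transporters of families 28 and 29. That gave 135 genes on 156 probe sets in 38 family numbers, out of 8793 named genes on the array. The mitochondrial slc25 carriers, 25 genes on 29 probe sets, are described apart from the other 110 genes on 127 probe sets. Of the 156 probe sets, 2 carry a gene that is only named after a carrier, slc4a1ap (an adaptor) and slc7a6os (on the opposite strand of a carrier gene), and they were kept because the symbol rule takes them.

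Zebrafish embryos of the Tu strain were treated with 6.5 uM leflunomide or with the solvent DMSO, starting at 50% epiboly, a stage of gastrulation, and ending at 24 hours post fertilization. Leflunomide is a drug whose active form blocks dihydroorotate dehydrogenase, an enzyme of pyrimidine synthesis in the mitochondrial inner membrane. Total RNA of embryos was measured on 3 arrays after leflunomide and on 3 arrays after DMSO. The labels name no clutch and no number of embryos per array, so the p-values cover no more than the scatter of these particular arrays, which may be technical, and the small number of arrays limits the precision.

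Each SLC family moves a related set of solutes: glutamate and neutral amino acids in slc1, hexoses in slc2, chloride with cations in slc12, zinc in slc30 and slc39, nucleotide sugars of the Golgi in slc35. Most work at the plasma membrane or in the membrane of an organelle, either as exchangers or by using the gradient of an ion. Most slc25 carriers sit in the mitochondrial inner membrane. They pass ADP and ATP, phosphate, carboxylates, amino acids and cofactors between the cytosol and the matrix. The family was taken whole by its number, wherever a member sits. Many SLC genes mark single cell types of the embryo, since a neuron, a pigment cell and a kidney tubule cell each need their own transporters.

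A value below is a log2 signal relative to the median of that probe set over the 6 arrays, so 0 is the middle of the arrays and not an absence of signal, and levels of different genes cannot be compared. When the groups are apart, the lowest array of one group and the highest array of the other lie at equal distances from 0, which follows from this centring. A probe set was tested if its level, recovered coarsely from the rounding of the values, was at least 4 on the log2 scale. That left 127 SLC probe sets of 110 genes, and the other 29 probe sets, which hold 25 genes completely, were not tested. "Called" means an adjusted p under 0.05 in limma, fitted to all 12627 tested probe sets.

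Several cell type marker lists differed between the groups of whole embryos. Called lower were 15 of 16 tested probe sets of fast skeletal muscle (median difference -4.01), 8 of 9 of red blood cells (-2.10), 2 of 2 of melanophores (-2.54), 8 of 17 of neurons (-0.68) and 2 of 2 of the hatching gland (-0.72). Of the pronephros list, 1 of 9 was called lower (median 0.10), of the epidermis list 1 was called higher and 1 lower of 7 (0.21), and none was called of 5 for the yolk syncytial layer (0.22) or of 2 for ionocytes (-0.18). In such bulk samples, fewer cells of a type and less RNA per cell cannot be told apart. Leflunomide 1 was the array with the smallest shifts in the muscle, red cell, melanophore and neuron lists. The array's own RNA quality probes differed as well. The 3′ minus 5′ signal of the actin control acta1 averaged 1.24 higher after leflunomide. That of the gapdh control averaged 0.66 lower, a leflunomide minus DMSO difference of -0.66. Since acta1 is a muscle actin, its value may also hold a part of the muscle change, which was not tested.

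SLC genes moved in both directions after leflunomide. Of the 127 tested SLC probe sets, 20 rose, 16 fell and 91 were not called, which is 28.3% called, 15.7% higher and 12.6% lower. Over all tested probe sets 20.8% were called, 9.88% higher and 10.9% lower. The median SLC difference, leflunomide minus DMSO, was 0.10, beside 0.04 for all tested probe sets, and the median size of a difference was 0.31, beside 0.22. The called probe sets belonged to 33 genes, 18 higher and 15 lower. A change of at least 2-fold was called higher for 3 and lower for 6 of the 127 tested SLC probe sets. Over the whole array it was called higher for 139 and lower for 497 of 12627 tested.

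Outside slc25, 17 of 102 tested probe sets rose and 13 fell, 29.4% in all, with a median difference of 0.11. In slc25, 3 of 25 rose and 3 fell, 24% in all, with a median of -0.02. The largest decreases were in slc2a15b, slc25a4, slc2a11b and slc37a4b, and the largest increases in slc35e1, slc31a1 and slc37a4a. On all 36 called probe sets the leflunomide arrays lay wholly to one side of the DMSO arrays. Called or not, the groups were apart in this way on 62 of the 127 tested SLC probe sets. Over the whole array they were apart on 5180 of the 12627 tested. Leaving out any 1 of the 6 arrays kept 15 of the 36 calls, 6 higher and 9 lower, a count that was not made over all probe sets. Such fits hold fewer arrays, and most called fewer probe sets. Without DMSO 3, 413 of all probe sets were called higher and 707 lower, beside 1248 and 1378 with all arrays. Hence a lost call does not by itself show that the array left out carried the difference. Between the groups of arrays, standard errors of the tested SLC differences ran between 0.09 and 0.73 with a median of 0.14, the smallest called difference was 0.41 in size, and 19 uncalled probe sets had an unadjusted p under 0.05.

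**Figure D1:**
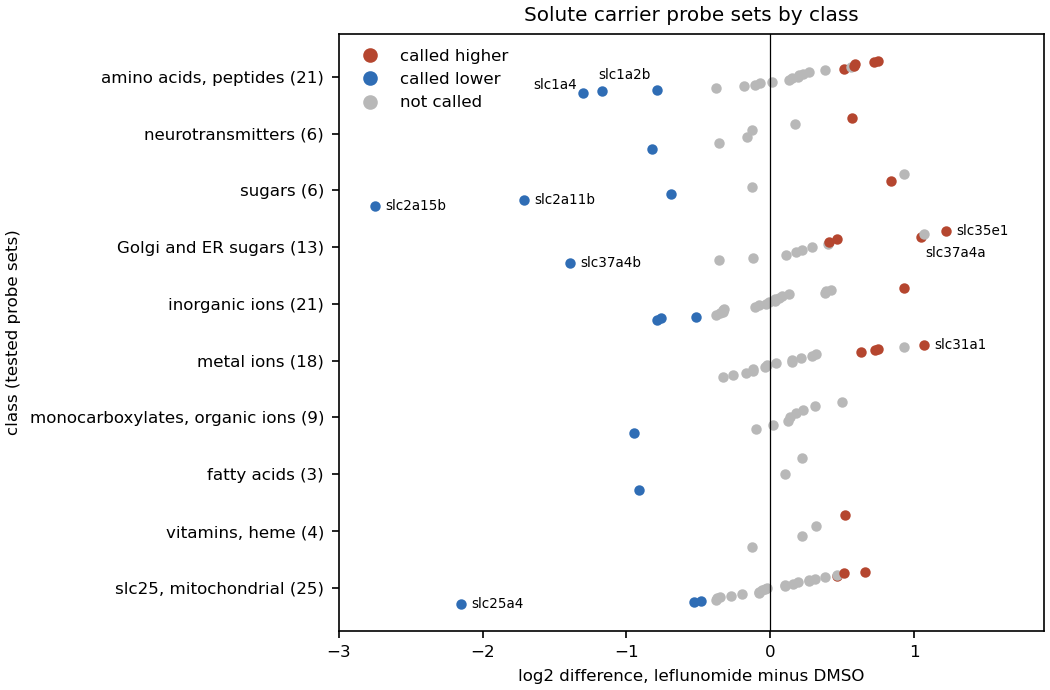
Log2 difference, leflunomide minus DMSO (horizontal axis), for the 126 tested probe sets of carrier genes in 10 transport classes (vertical axis, number of tested probe sets in parentheses), each point being 1 probe set, ordered within its class and coloured by the limma call. Sugar carriers hold the decrease of -2.75 in slc2a15b, and slc25a4 at -2.15 stands apart from the other slc25 points. The metal ion class has 4 called increases and no called decrease, 22.2% called, beside 20.8% over all tested probe sets.

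Sugar carriers of family 2 held the largest SLC decrease. Of 6 tested probe sets, 3 fell, in 2 genes, and 1 rose (median -0.41). That is 50% lower and 16.7% higher, beside 10.9% and 9.88% over all tested probe sets. For slc2a15b, a facilitated sugar transporter that medaka needs for its leucophore and xanthophore pigment cells, the first of 2 probe sets read -1.57, -1.14 and -1.19 on the leflunomide arrays and 1.37, 1.85 and 1.14 on the DMSO arrays. The groups were far apart, and slc2a15b was 6.74-fold lower (difference -2.75, SE 0.20, adjusted p = 0.000425). Its other probe set read -0.24, -0.26 and -0.24 after leflunomide and 0.47, 0.62 and 0.24 after DMSO, a smaller fall of -0.69 (SE 0.12, adjusted p = 0.00854). Leaving out any 1 array kept both calls.

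The related gene slc2a11b, also required for pigment cells of medaka, read -0.54, -1.03 and -1.20 on the leflunomide arrays and 0.73, 1.08 and 0.54 on the DMSO arrays. It was 3.27-fold lower (difference -1.71, SE 0.20, adjusted p = 0.00219), and every fit with 1 array left out kept the call. Both tested melanophore markers fell beside these 2 genes: mitfa, the regulator of melanophores, with a difference of -2.15 and dct, an enzyme of melanin synthesis, with -2.94. The melanophore marker tyr, at -0.05, was below the level minimum and not tested. The pteridine enzyme gch2 of xanthophores, looked up after the SLC values had been seen, fell on both of its probe sets, with differences of -5.07 (SE 0.15) and -1.35 (SE 0.16). The part of a change in pigment cells in the slc2a15b and slc2a11b results was not tested.

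The opposite direction was seen for slc2a2, the low-affinity glucose transporter of liver and pancreas in mammals. It read 0.21, 0.79 and 0.40 after leflunomide and -0.49, -0.21 and -0.44 after DMSO, a rise of 0.84 (SE 0.17, adjusted p = 0.0132). Leaving out DMSO 1 or DMSO 3 ended the call (adjusted p up to 0.0588). The brain-type glucose transporter slc2a3a was not called (-0.13, adjusted p = 0.642). For slc2a10 the difference of 0.93 was as large as that of slc2a2 but carried an SE of 0.29 (adjusted p = 0.0619). The other 6 probe sets of the sugar class were below the level minimum. Among them were slc5a12, slc5a6b and slc5a8l, placed in the class by family number and not by their own substrates.

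The 2 related glucose-6-phosphate carriers slc37a4a and slc37a4b moved in opposite directions. In mammals the product of the counterpart gene brings glucose-6-phosphate into the endoplasmic reticulum, where it is cleaved to free glucose. The slc37a4b probe set read -0.92, -0.70 and -0.56 on the leflunomide arrays and 0.56, 0.75 and 0.69 on the DMSO arrays, and it was 2.63-fold lower (difference -1.39, SE 0.12, adjusted p = 0.000923). The slc37a4a probe set read 0.55, 0.30 and 0.32 after leflunomide and -0.30, -0.75 and -0.92 after DMSO, and it was 2.07-fold higher (difference 1.05, SE 0.17, adjusted p = 0.00708). Both calls stood without any 1 array. A second slc37a4a probe set gave nearly the same mean difference, 1.07, but scattered widely, with -1.14, 1.42 and 1.49 after leflunomide and -1.45, -0.19 and 0.19 after DMSO (SE 0.73, adjusted p = 0.344). Without leflunomide 1 that second probe set was called higher (difference 1.94, adjusted p = 0.021).

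With these 2 genes included, the Golgi and endoplasmic reticulum class had 4 called increases and 1 called decrease in 13 tested probe sets (median 0.29). That is 30.8% higher and 7.69% lower, beside 9.88% and 10.9% over all tested probe sets. Members were placed in the class by family number, wherever each of them sits in the cell. Highest of all SLC probe sets was slc35e1, of the nucleotide sugar family, with 0.43, 0.51 and 0.44 after leflunomide and -0.43, -0.90 and -0.95 after DMSO. That is a 2.33-fold rise (difference 1.22, SE 0.15, adjusted p = 0.00246), kept without any 1 array. The remaining calls of the class were smaller and were lost in several fits with 1 array left out.

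The smaller of them was slc37a2, which exchanges glucose-6-phosphate for phosphate in mammals (0.41, SE 0.12, adjusted p = 0.043). It was called without leflunomide 1 and lost without each of the other 5 arrays (adjusted p up to 0.147), and also with 75th percentiles aligned (0.0556). The other was slc35f6 (0.46, SE 0.11, adjusted p = 0.0294), lost without leflunomide 2, leflunomide 3, DMSO 2 or DMSO 3 (up to 0.102). Its second probe set, at 0.40, missed the threshold (adjusted p = 0.059) and was called without leflunomide 3 (0.49, adjusted p = 0.0383). Uncalled slc35 members lay between -0.36 in slc35f2 and 0.40, with slc35b4, a carrier of UDP-sugars in mammals, at 0.29 and slc35b2, the sulfate donor carrier, at 0.18.

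**Figure D2:**
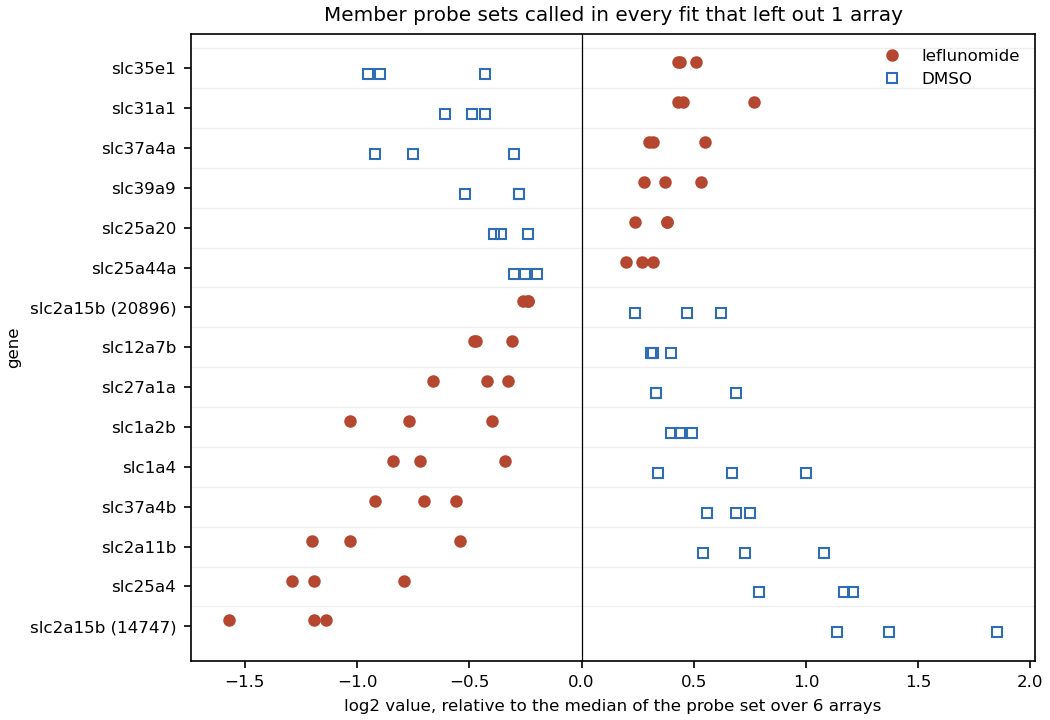
Log2 value relative to the median of the probe set over the 6 arrays (horizontal axis) for each of the 15 SLC probe sets (vertical axis, 1 row each) that were called in all 6 fits with 1 array left out; filled circles are the 3 leflunomide arrays and open squares the 3 DMSO arrays. In every row the groups lie on opposite sides of 0, as they must when they do not overlap, and the gap is widest for slc2a15b.

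Called changes of amino acid carriers differed in direction between families. All 3 tested probe sets of family 1 fell. Families 38, 7 and 15 gave 5 called increases, in 4 genes, and no called decrease. Each of these increases was lost in at least 1 fit with an array left out. Families 3 and 43 had no call. The class of 21 tested probe sets thus held 23.8% higher and 14.3% lower, with a median of 0.19. Over all tested probe sets these shares were 9.88% and 10.9%. In family 1, slc1a4 exchanges neutral amino acids such as serine and alanine. It read -0.84, -0.34 and -0.72 on the leflunomide arrays and 0.67, 1.00 and 0.34 on the DMSO arrays, a 2.46-fold fall (difference -1.30, SE 0.20, adjusted p = 0.0053). The glutamate transporter slc1a2b, whose mammalian counterpart clears glutamate from synapses in astrocytes, read -0.40, -0.77 and -1.03 after leflunomide and 0.44, 0.49 and 0.40 after DMSO. Its fall was 2.26-fold (difference -1.17, SE 0.16, adjusted p = 0.00358), and both it and slc1a4 stayed called without any 1 array.

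A second glial glutamate transporter, slc1a3a, read -0.11, -0.79 and -0.70 after leflunomide and 0.21, 0.11 and 0.45 after DMSO. Leflunomide 1 lay closer to the DMSO arrays than the other 2 did. The fall of -0.79 (SE 0.19, adjusted p = 0.0277) was called without leflunomide 1 and lost without any other array (adjusted p up to 0.105). The neuron marker list also shifted least on leflunomide 1, with medians of -0.28, -0.86 and -1.10 on leflunomide 1, 2 and 3. Their part in the slc1 results was not tested.

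The sodium-coupled neutral amino acid carriers of family 38 all had a positive difference, the smallest being 0.0095 in slc38a6. Over the whole array 7058 of 12627 tested probe sets had a positive difference. The 7 tested probe sets of family 38, from 6 genes, had a median of 0.38, and 2 were called. For slc38a5b, a glutamine carrier, the leflunomide arrays read 0.22, 0.69 and 0.41 and the DMSO arrays -0.26, -0.22 and -0.36, a rise of 0.72 (SE 0.14, adjusted p = 0.0119). Its call was lost only without DMSO 3 (adjusted p = 0.0552). For slc38a7, which exports glutamine from lysosomes in mammals, one probe set rose by 0.75 (SE 0.18, adjusted p = 0.0249). That call did not survive leaving out leflunomide 2, leflunomide 3, DMSO 2 or DMSO 3 (up to 0.0855), nor array weights (0.0501). The other probe set of slc38a7 gave 0.56 (SE 0.20, adjusted p = 0.0808).

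Both probe sets of slc7a8a, the light chain of a heteromeric neutral amino acid exchanger, rose by nearly the same amount. The first read 0.08, 0.50 and 0.17 after leflunomide and -0.64, -0.31 and -0.08 after DMSO (difference 0.59, SE 0.17, adjusted p = 0.0478), and the second gave 0.58 (SE 0.17, adjusted p = 0.0487). Both lay just inside the threshold and were lost without each array except leflunomide 1 (adjusted p up to 0.143 and 0.156). They were lost too when array medians (0.0528 and 0.054) or 75th percentiles (0.0576 and 0.0545) were aligned. Without the filter on level both were lost as well (0.0517 and 0.0528). Quantile normalization ended the call of the first only (0.0586). For slc15a4, a histidine and peptide carrier of endolysosomes in mammals, the rise of 0.51 (SE 0.13, adjusted p = 0.0305) was likewise lost without each array except leflunomide 1 (up to 0.106).

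Several amino acid carriers are known in mammals as targets of the amino acid response. Of the 6 such genes looked at here, slc1a4 fell and no other was called, while 20.8% of all tested probe sets were called. The set is partial, and slc7a1b was put in it after its value had been seen. The amino acid carriers slc7a5, slc7a11, slc1a5 and slc6a9 were looked for and had no member probe set. The glutamine carrier slc38a2 had a difference of 0.38 (adjusted p = 0.0831), the heavy chains slc3a2a and slc3a2b 0.27 (0.136) and -0.11 (0.602), and the cationic amino acid carriers slc7a1b and slc7a3a 0.15 (0.381) and -0.38 (0.0691). Neither slc38a4 (0.19, adjusted p = 0.225) nor slc43a1a (-0.07, adjusted p = 0.701) was called.

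Carriers of neurotransmitters and of other sodium- or chloride-coupled small solutes, a class set by family number, gave 1 fall and 1 rise. With 6 tested probe sets (median -0.14), that is 16.7% lower and 16.7% higher. Over all tested probe sets the shares were 10.9% and 9.88%. The vesicular carrier slc32a1, which loads GABA and glycine into synaptic vesicles, read -0.12, -0.98 and -0.43 after leflunomide and 0.30, 0.51 and 0.12 after DMSO. It fell by 0.82 (SE 0.22, adjusted p = 0.0366), with leflunomide 1 again nearest to the DMSO arrays. The plasma membrane GABA carrier slc6a11a, which in mammals takes GABA up into glia, moved the other way, with 0.51, 0.49 and 0.10 after leflunomide and -0.19, -0.10 and -0.32 after DMSO (difference 0.57, SE 0.14, adjusted p = 0.0278). Without leflunomide 1 slc32a1 stayed called, and it was lost without each other array (up to 0.117).

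The slc6a11a call was kept without leflunomide 3 and lost without each other array (adjusted p up to 0.1), though the difference stayed between 0.50 and 0.70. That call was also lost with 75th percentiles aligned (0.0542). The vesicular acetylcholine carrier slc18a3a was not called (-0.36, adjusted p = 0.258). Beside these genes, 8 of 17 neuron marker probe sets fell, and their part was not tested. The dopamine carrier slc6a3 was below the level minimum.

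Among ion carriers 3 of 21 tested probe sets fell and 1 rose, which is 19% called, near the 20.8% over all tested probe sets, and the median was -0.03. The potassium chloride cotransporter slc12a7b gave the tightest of these results, with -0.31, -0.47 and -0.48 on the leflunomide arrays and 0.31, 0.40 and 0.32 on the DMSO arrays. It was 1.69-fold lower (difference -0.76, SE 0.10, adjusted p = 0.0031) in the fit of all arrays and called without any 1 of them. Phosphate carrier slc20a1a read -0.09, -0.97 and -0.75 after leflunomide and 0.09, 0.11 and 0.36 after DMSO, so the fall of -0.79 (SE 0.22, adjusted p = 0.0422) rested on leflunomide 2 and 3. It was called without leflunomide 1 and lost without any other array (up to 0.142).

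The paralog slc20a1b was flat (-0.11, adjusted p = 0.436). Differences in the pronephros list ran from -0.82 to 0.41 with a median of 0.10, and 1 of 9 probe sets was called lower. The part of the pronephros in the slc20a1a fall was not tested. The anion exchanger family member slc26a10 fell by 0.52 (SE 0.12, adjusted p = 0.0211). Its call was lost without leflunomide 2 or any 1 DMSO array (up to 0.0792). The dicarboxylate carrier slc13a2, which takes up citrate and succinate in mammalian kidney and gut, read 0.05, 0.76 and 1.22 after leflunomide and -0.33, -0.36 and -0.05 after DMSO. This rise of 0.93 (SE 0.27, adjusted p = 0.0484) was also called without leflunomide 1 and lost without each other array (up to 0.137). It was lost too with array medians aligned (0.0514), without the filter on level (0.0549) and with a robust variance model (0.0514).

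The thiazide-sensitive sodium chloride cotransporter slc12a3 of kidney and ionocytes was not called on either probe set. On the first, the leflunomide arrays spread over 0.43, -0.39 and -1.06 while the DMSO arrays had an SD of 0.02, and the difference of -0.35 had an SE of 0.33 (adjusted p = 0.495). Without leflunomide 1 it was called lower (-0.74, adjusted p = 0.0376). The second gave -0.08 (adjusted p = 0.816). Bicarbonate carriers of family 4 were uncalled, with slc4a4b at -0.33 (adjusted p = 0.0735, and called lower at 0.0379 with 75th percentiles aligned) and slc4a2a at -0.38 (0.174) and 0.08 (0.737) on its tested probe sets. The sodium proton exchanger slc9a7 of the Golgi had a difference of 0.42 (adjusted p = 0.0684).

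Metal carriers had 4 called increases, in 3 genes, and no called decrease in 18 tested probe sets, with a median of 0.15. The share called was 22.2%, near the 20.8% over all tested probe sets. All of these calls were higher, while over all tested probe sets 9.88% were called higher and 10.9% lower. Copper enters cells through slc31a1. Its first probe set read 0.43, 0.45 and 0.77 after leflunomide and -0.61, -0.43 and -0.49 after DMSO, a 2.09-fold rise (difference 1.07, SE 0.13, adjusted p = 0.00211) that stayed called without any 1 array. A second slc31a1 probe set read 0.92, 0.87 and 0.01 after leflunomide and -0.01, -0.74 and -0.26 after DMSO. Its difference of 0.93 just missed the threshold (SE 0.28, adjusted p = 0.0511) and was called without leflunomide 3 (1.23, adjusted p = 0.0132).

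Zinc import carriers of family 39 rose on 3 of 8 tested probe sets, in 2 genes, and the exporters of family 30 on 0 of 6. Over all tested probe sets 9.88% rose, and counts this small do not set the families apart. Both probe sets of slc39a9, a zinc carrier of the Golgi and plasma membrane, were called. One read 0.28, 0.37 and 0.53 after leflunomide and -0.28, -0.28 and -0.52 after DMSO (difference 0.75, SE 0.12, adjusted p = 0.00635), and the other rose by 0.63 (SE 0.14, adjusted p = 0.0197). The first kept its call without any 1 array, and the second lost it without leflunomide 2 (0.059). For the epithelial zinc importer slc39a5 the rise was 0.73 (SE 0.15, adjusted p = 0.0165), not called without leflunomide 2, DMSO 1 or DMSO 3 (up to 0.0554).

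Family 30 differences ran between -0.17 and 0.32. The endoplasmic reticulum zinc carrier slc39a7 was not called on either probe set (-0.33, adjusted p = 0.285, and -0.12, adjusted p = 0.442). Iron carriers were uncalled too, with 0.21 for the importer slc11a2 (adjusted p = 0.173) and -0.26 for the exporter slc40a1 (0.102). The heme carrier slc48a1b, which releases heme from endolysosomes, rose by 0.52 (SE 0.13, adjusted p = 0.0283) and lost its call without leflunomide 2, leflunomide 3, DMSO 1 or DMSO 2 (up to 0.103). Red blood cell markers moved the opposite way, with a list median of -2.10.

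Called lower were 1 of 9 tested probe sets of monocarboxylate, organic ion and bile acid carriers (11.1%) and 1 of 3 of fatty acid carriers (33.3%). None of either class was called higher. Over all tested probe sets 10.9% were called lower and 9.88% higher. Differences in these classes were positive on 7 of 9 and 2 of 3 probe sets, and on 7058 of 12627 over all tested probe sets. The monocarboxylate carrier slc16a3b, whose mammalian counterpart exports lactate from glycolytic muscle, read -0.21, -0.95 and -0.74 after leflunomide and 0.43, 0.21 and 0.32 after DMSO. It was 1.94-fold lower (difference -0.95, SE 0.19, adjusted p = 0.0135) and was no longer called when DMSO 1 or DMSO 3 was left out (up to 0.0579). Its relative slc16a1b, the widely used monocarboxylate importer, had a positive difference of 0.50 (SE 0.15, adjusted p = 0.0527) that missed the threshold. The other 7 tested carriers of monocarboxylates, organic ions and bile acids were uncalled and lay between -0.10 and 0.31.

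Fatty acid transport protein slc27a1a, the muscle and fat form in mammals, read -0.42, -0.66 and -0.33 on the leflunomide arrays and 0.33, 0.69 and 0.33 on the DMSO arrays. It fell by 0.91 (SE 0.14, 1.88-fold, adjusted p = 0.006) and stayed called without any 1 array. Neither slc27a2a (0.22, adjusted p = 0.497) nor slc27a6 (0.10, adjusted p = 0.546) was called. Fast muscle markers fell on 15 of 16 probe sets beside slc16a3b and slc27a1a, with medians of -3.25, -4.41 and -4.14 on leflunomide 1, 2 and 3, and their part in these falls was not tested.

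Of the 25 tested probe sets of mitochondrial slc25 carriers, 21 (84%) lay within 0.5 of 0, beside 80.5% of all tested probe sets, and 1 gene lay beyond 1 in size. The median size of a difference was 0.27 in slc25, beside 0.22 over all tested probe sets. The gene beyond 1, slc25a4, encodes an ADP/ATP carrier that in mammals is the form of heart and skeletal muscle. Its arrays read -1.29, -1.19 and -0.79 after leflunomide and 1.17, 1.21 and 0.79 after DMSO. The fall was 4.43-fold (difference -2.15, SE 0.17, adjusted p = 0.000624), the second largest of all SLC genes, and no single array carried it. Beside it stands the fall of the fast muscle list, median -4.01, whose part was not tested.

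Of the 3 called slc25 increases, 2 stayed called without any 1 array. The carnitine-acylcarnitine carrier slc25a20, which brings fatty acids in for oxidation, read 0.24, 0.38 and 0.38 on the leflunomide arrays and -0.24, -0.36 and -0.39 on the DMSO arrays (difference 0.66, SE 0.10, adjusted p = 0.0053). The branched-chain amino acid carrier slc25a44a read 0.27, 0.32 and 0.20 after leflunomide and -0.20, -0.25 and -0.30 after DMSO (difference 0.51, SE 0.10, adjusted p = 0.0108). The paralog slc25a44b, at 0.10, had a wide SE of 0.27 (adjusted p = 0.833).

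One probe set of the oxoglutarate malate carrier slc25a11 rose by 0.46 (SE 0.10, adjusted p = 0.0182), and the other gave 0.31 (SE 0.18, adjusted p = 0.258). The first was lost without leflunomide 2 or any 1 DMSO array (up to 0.0716), and the other was called without leflunomide 3 (0.51, adjusted p = 0.039). The 2 smaller slc25 decreases were each lost in several such fits. The S-adenosylmethionine carrier slc25a26 fell by 0.53 (SE 0.11, adjusted p = 0.0161), lost without any 1 DMSO array (up to 0.0633). The citrate carrier slc25a1a fell by 0.48 (SE 0.12, adjusted p = 0.032), lost without leflunomide 1, leflunomide 2, DMSO 1 or DMSO 3 (up to 0.115).

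Phosphate for ATP synthesis enters through slc25a3, and neither slc25a3a (-0.06, adjusted p = 0.763) nor slc25a3b (0.10, adjusted p = 0.549) was called. The pyrimidine nucleotide carrier slc25a33, named for its substrate after its value had been seen, had a difference of 0.38 with leflunomide and DMSO arrays apart, and it was not called (SE 0.14, adjusted p = 0.103). Genes of the mitochondrial import machinery, timm and tomm, had a median of 0.04 over 18 tested probe sets, with tomm20a higher (0.43, adjusted p = 0.0369) and tomm40l lower (-0.54, adjusted p = 0.0141).

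**Figure D3:**
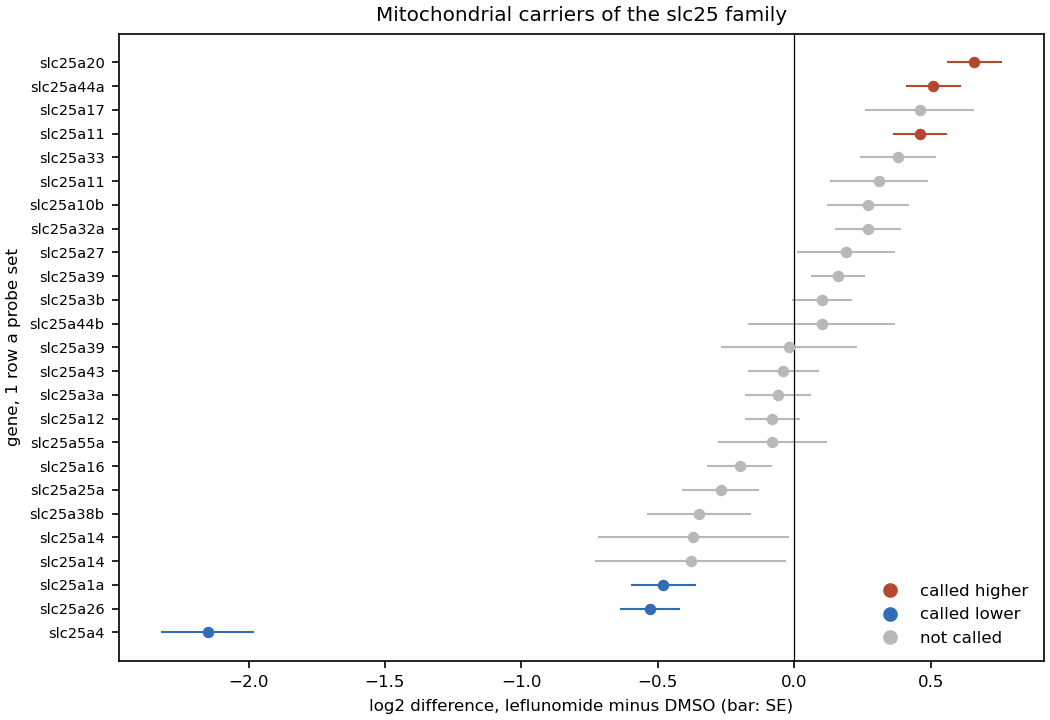
Log2 difference, leflunomide minus DMSO (horizontal axis), with its standard error as a bar, for the 25 tested slc25 probe sets (vertical axis, 1 row each), coloured by the limma call. Only slc25a4 (-2.15) lies beyond 1 in size, and 21 of the 25 lie within 0.5 of 0.

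Of the 13 tested probe sets with an ABC family symbol, only abca12 was called (0.79, adjusted p = 0.00441), and the median was 0.04. That is 7.69% called, beside 20.8% over all tested probe sets. Most ABC proteins are transporters that use ATP directly, but the choice by symbol also took in abce1, abcf1 and abcf2a. Of 2 organic anion transporter genes of the slco type, slco1d1 rose by 1.09 (SE 0.11, adjusted p = 0.0013) and slco1f1 stayed at 0.05 (adjusted p = 0.86).

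Where a gene had more than 1 tested probe set, no pair was called in opposite directions. There were 16 such genes. In slc2a15b, slc39a9 and slc7a8a all probe sets were called alike, in slc25a11, slc31a1, slc35f6, slc37a4a and slc38a7 only some were, and in the other 8 none was. The probe sets of slc2a15b agreed in sign and differed in size, -2.75 and -0.69. Probe sets of closely related paralogs can bind each other's transcripts, which the files do not resolve.

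**Figure D4:**
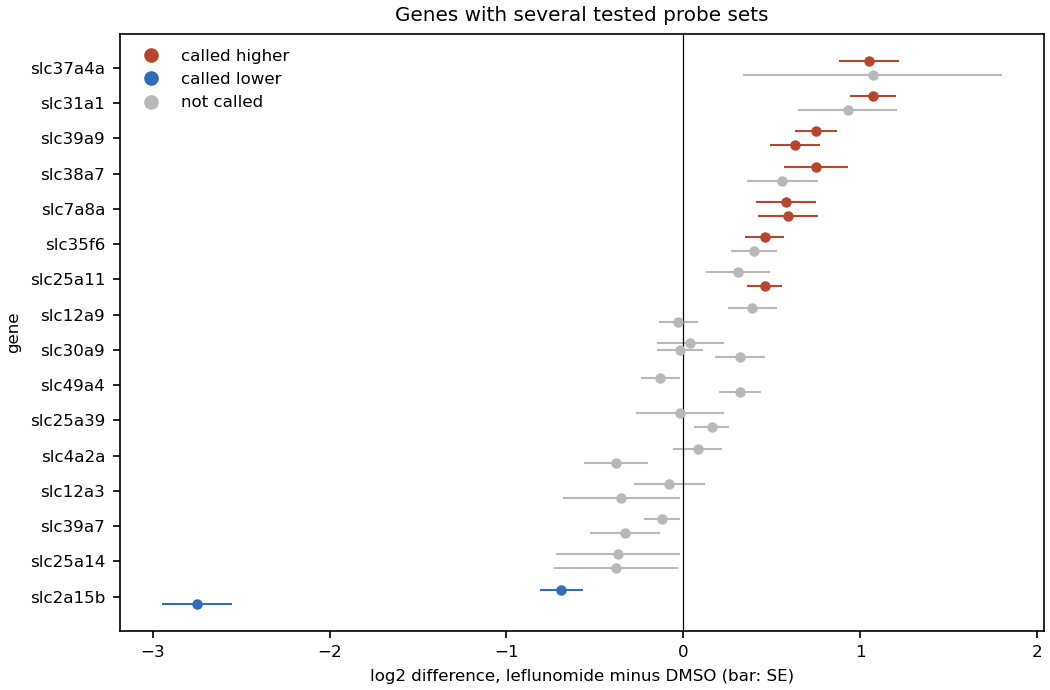
Log2 difference, leflunomide minus DMSO (horizontal axis), with its standard error as a bar, for each tested probe set of the 16 SLC genes with several tested probe sets (vertical axis), called or not, coloured by the limma call. Both probe sets of slc39a9 and of slc7a8a lie close together, while those of slc2a15b are -2.75 and -0.69.

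Change among the called SLC probe sets was smallest on leflunomide 1. The median size of the change relative to the DMSO mean was 0.57 on leflunomide 1, 0.83 on leflunomide 2 and 0.79 on leflunomide 3. Without leflunomide 1 the calls outside slc25 numbered 17 higher and 14 lower, without leflunomide 2 they were 7 and 9, and without DMSO 3 they were 6 and 8. Over all probe sets the same fits called 1383 higher and 1454 lower, 636 and 837, and 413 and 707.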

How the data were processed

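Total RNA from 3 leflunomide and 3 DMSO arrays was compared. Per the submitters' processing notes, the authors made the deposited log2 values with GCRMA, which corrects background by probe sequence and normalizes by quantiles (version not given in the sources used here). They are centred on each probe set's median (0 within 5.0e-07), a step no source states, and the log base was taken as 2 because GCRMA gives it. Coarse levels were read off the rounding step of the single-precision values: 2875 probe sets lay at 2 to 4, 8484 at 4 to 8 and 4143 at 8 to 16. Of 15617 probe sets, 115 controls were left out.

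Differences, leflunomide minus DMSO, were fitted with limma 3.58.1 in R 4.3.3 (lmFit, eBayes, two-sided, Benjamini-Hochberg over all 12627 tested probe sets) and tested on simulated data. Symbols came from the platform annotation, and all 156 member identifiers were found in RefSeq; 5 probe sets that name several genes, one an SLC, were left out. Named were all called slc25 members, the 15 largest called increases and decreases elsewhere, and a fixed list of carriers; others are shown as values and were chosen after they were seen. Members and lists were chosen with earlier results of these data known. Promoter motif counts were not made. A permutation test of 3 against 3 arrays cannot go below 0.10 and is not given. Alternatives covered filter, scaling, variance model, array weights, replicate block, thresholds, 1 probe set per gene and each array left out.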

Additional observations from a re-analysis of the deposited data

How the results depend on the processing

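No called difference of a named SLC probe set changed sign under the alternatives run. Outside slc25, with 17 higher and 13 lower in the fit reported, a recovered level of at least 8 gave 9 and 3, from fewer probe sets tested. A threshold of 0.01 gave 4 and 8. No filter on level gave 14 and 14, and the increases it lost were both probe sets of slc7a8a and slc13a2. Leaving out 1 array at a time gave 6 to 17 higher and 8 to 14 lower, with the fewest without DMSO 3. In slc25, with 3 higher and 3 lower, the threshold of 0.01 gave 1 and 1, a level of at least 8 gave 1 lower, no filter gave 5 lower, and leaving out 1 array gave 2 to 4 higher and 1 to 4 lower. Aligning 75th percentiles changed the split outside slc25 to 13 higher and 15 lower, and aligning medians to 14 and 14; the scalings moved the median of all probe sets by at most 0.06 in size (-0.06), and 31 of 36 calls were kept under all 3 scalings. With the replicate block the counts were 20 and 13 outside slc25 and 4 and 3 in slc25, the slc35f6 call was lost (0.051), and second probe sets of slc37a4a (0.0332), slc31a1 (0.0456) and slc38a7 (0.0304) were called higher. Same-numbered arrays correlated in their deviations by 0.333, 0.19 and 0.0725, each highest with its own number, a hint only. Centred values and 3 arrays a group limit what can be shown: levels cannot be compared between genes, and 21 of the 36 calls are lost in at least 1 fit with an array left out.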

Other observations

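Among the 29 SLC probe sets below the level minimum, 3 were called in the fit with no filter on level, all lower. Over all 15502 probe sets that fit called 1259 higher and 1422 lower. The share called among all probe sets below the minimum was not counted, so whether 3 of 29 is unusual cannot be said. The mitochondrial carrier family member slc25a48 read -0.23, -0.85 and -0.25 on the leflunomide arrays and 0.43, 0.65 and 0.23 on the DMSO arrays (difference -0.88, adjusted p without a filter = 0.0211, limma). The urea carrier slc14a2 averaged -0.27 ± 0.09 after leflunomide and 0.58 ± 0.47 after DMSO (SD, n = 3 each), a difference of -0.85 (limma, adjusted p without a filter = 0.0358), with DMSO 2 above the other arrays. The mitochondrial carrier slc25a55b gave -0.42 (0.0385). Mitoferrin slc25a37, which imports iron for heme in red blood cells of zebrafish, gave -0.35 and just missed the threshold (0.0522), with leflunomide arrays at -0.24, -0.08 and -0.12 and DMSO arrays at 0.08, 0.24 and 0.30. The zinc exporter slc30a1a, a metal-responsive gene in mammals, gave 0.33 (0.106).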
